A study of Mus musculus with 20 samples.

Results

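The interferon response genes are 30 genes that interferons switch on, followed here in mouse calf muscle after injection of an antibody. They were listed by symbol, and each was read from its single-gene probe set with the highest mean log2 intensity over the 20 samples. Of the 30 genes, 28 had a single-gene probe set, and 25 of these passed a filter on low signal that 11200 genes passed in all. Samples of the gastrocnemius, a calf muscle, came from mice given JA16, an antibody that binds the muscle growth inhibitor myostatin, or saline, with 10 samples in each group. JA16 mice were injected into the peritoneum with 0.12 mg of antibody per g body weight on day 1 and 0.09 mg per g on day 3, saline mice received saline and not another antibody, and both were killed on day 5. The sources used here do not give strain, sex or age. The labels do not say that each sample came from its own mouse, so the p-values measure only how far these samples spread, which may be technical in part. Values are Affymetrix MAS5 intensities, and a fold change is the log2 intensity of JA16 minus saline with same-numbered samples paired.

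Type I interferons act through a receptor and its kinases on a complex that includes Stat2 and Irf9 and binds interferon-stimulated response elements (ISRE) in promoters. Interferon gamma acts through gamma-activated sites (GAS) in promoters and through Irf1, which it induces. The induced genes encode sensors of viral RNA, transcription factors, antiviral proteins, GTPases that act on intracellular pathogens, and the machinery that presents peptides on class I molecules. In resting muscle, much of this RNA can come from leukocytes and vessel cells as well as from fibres, and in bulk tissue fewer cells of a type cannot be told apart from less RNA per cell.

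RefSeq promoter windows of 300 bases, around the gene start (build GRCm38.p6), were at hand for 26 of the 30 genes. The ISRE core, searched as GAAANNGAA on both strands, was found in 16 of these 26 genes (61.5%), against 9.8% of 27025 genes with a window. The GAS motif, searched as TTCNNNGAA, which reads the same way on both strands, was found in 8 of the 26 (30.8%), against 9.6% of the 27025. The letters of the motifs are a description and not evidence of binding. Windows are printed for 5 genes chosen as examples because they hold a match and their genes are described by sample below, with motif matches in capitals, each read along the strand of its gene. The Ifit1 window lies at chr19:34640639-34640938 (plus strand), the Ifit3 window at chr19:34583279-34583578 (plus), the Oas1a window at chr5:120907476-120907775 (minus), the Irf1 window at chr11:53769764-53770063 (plus) and the Psmb8 window at chr17:34197945-34198244 (plus).
Ifit1: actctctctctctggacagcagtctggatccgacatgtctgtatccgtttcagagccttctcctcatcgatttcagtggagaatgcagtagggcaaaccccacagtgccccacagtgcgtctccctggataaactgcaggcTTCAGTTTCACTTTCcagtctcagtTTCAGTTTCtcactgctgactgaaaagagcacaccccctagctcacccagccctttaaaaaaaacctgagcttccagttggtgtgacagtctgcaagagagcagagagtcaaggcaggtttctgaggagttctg
Ifit3: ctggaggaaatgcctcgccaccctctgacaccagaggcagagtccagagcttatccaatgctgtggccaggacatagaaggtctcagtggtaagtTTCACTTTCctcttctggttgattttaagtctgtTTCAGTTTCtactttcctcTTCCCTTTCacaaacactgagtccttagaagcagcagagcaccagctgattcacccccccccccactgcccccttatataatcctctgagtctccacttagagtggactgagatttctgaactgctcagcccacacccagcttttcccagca
Oas1a: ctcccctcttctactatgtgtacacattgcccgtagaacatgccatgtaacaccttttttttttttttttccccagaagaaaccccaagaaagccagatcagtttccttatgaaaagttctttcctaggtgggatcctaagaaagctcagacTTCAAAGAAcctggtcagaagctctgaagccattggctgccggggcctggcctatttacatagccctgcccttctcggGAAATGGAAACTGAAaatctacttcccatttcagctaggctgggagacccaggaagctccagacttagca
Irf1: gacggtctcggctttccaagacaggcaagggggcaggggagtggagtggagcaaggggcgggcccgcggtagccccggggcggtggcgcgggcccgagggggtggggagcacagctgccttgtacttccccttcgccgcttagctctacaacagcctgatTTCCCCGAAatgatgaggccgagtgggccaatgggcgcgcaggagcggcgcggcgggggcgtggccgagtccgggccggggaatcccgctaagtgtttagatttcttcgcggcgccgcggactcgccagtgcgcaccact
Psmb8: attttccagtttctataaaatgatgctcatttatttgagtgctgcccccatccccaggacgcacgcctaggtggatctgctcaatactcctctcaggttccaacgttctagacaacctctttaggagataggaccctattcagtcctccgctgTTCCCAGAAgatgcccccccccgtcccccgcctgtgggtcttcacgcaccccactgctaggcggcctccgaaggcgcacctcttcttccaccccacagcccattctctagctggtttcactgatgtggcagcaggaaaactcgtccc
Ifit1 and Ifit3 each held 3 ISRE cores, of which those of Ifit1 at -109 and -103 from the gene start overlap. Oas1a held 2 overlapping ISRE cores, at -20 and -14, and a GAS match at -98. Irf1 held a GAS match at -90, and Psmb8 one at -97, and neither window held an ISRE core. The Psmb9 and Tap1 windows held neither motif, and they share 275 bases (chr17:34187306-34187580) because these genes start next to each other on opposite strands.

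Single samples stood apart and are named before the results. The skeletal muscle markers Ckm, Acta1, Myh4, Mb, Ttn and Des all passed the filter, and their summed intensity lay between 96220 and 133700 in JA16 samples and between 98280 and 125600 in saline samples. JA16 replicate 1 had a summed intensity of 4689 over 7 lymphocyte markers, and JA16 replicate 10 had 1577, against a highest value of 291.3 in saline samples. None of these 7 markers passed the filter on mean signal. Saline replicate 7 had the highest sum of 10 macrophage and monocyte markers (39340) and of 6 Fc receptors (12380), although JA16 replicate 1 also stood high for both, at 35070 and 7734. The samples with replicate numbers 1 to 6 also differed from those with numbers 7 to 10: the log2 ratio of 3' over 5' probe sets for beta-actin was 1.33 to 1.84 in the first set and 0.48 to 0.64 in the second, and the labels do not say why. Both groups are present in both sets, at 6 and 4 samples each.

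**Figure D1:**
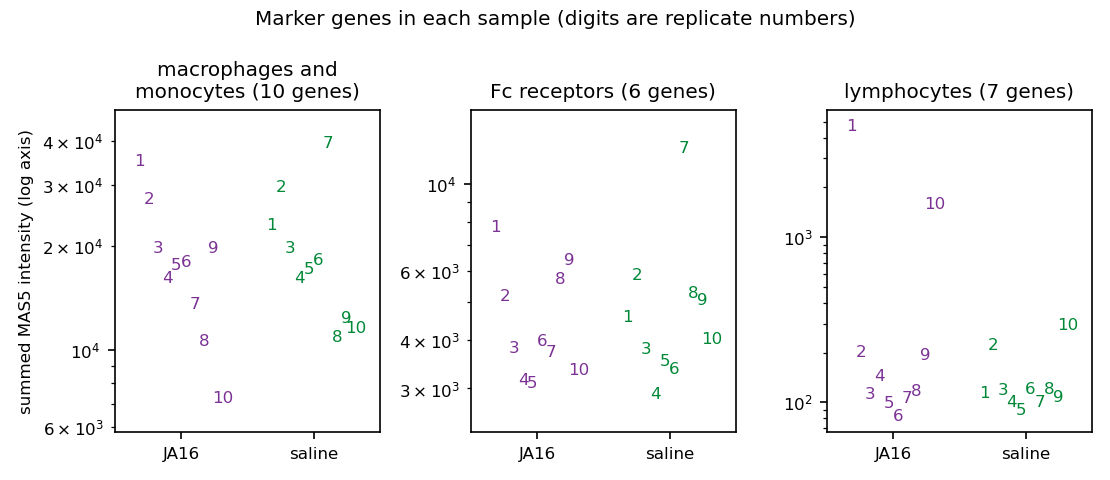
Summed MAS5 intensity (log axis) of macrophage and monocyte markers, Fc receptors and lymphocyte markers in each JA16 sample (left, purple) and saline sample (right, green), with the replicate number as the symbol. JA16 replicates 1 and 10 lie far above all other samples for lymphocyte markers (4689 and 1577), and saline replicate 7 lies highest for Fc receptors (12380) and macrophage markers (39340).

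No interferon response gene was called between JA16 and saline muscle. In the paired limma fit, 0 of the 25 tested genes had an adjusted p under 0.05, against 31 of 11200 genes (0.277%). At an unadjusted p under 0.05, 2 genes were higher in JA16, Usp18 and Ifi35, and 0 were lower, while 7.49% of all genes were higher and 8.76% were lower at that threshold. The fit without pairing also called 0 of the 25, against 0.0357% of all genes, and put 1 gene, Usp18, at an unadjusted p under 0.05, where 2.65% of all genes stood. The median log2 fold change was -0.05 over the 25 genes and -0.02 over all genes, with 11 genes above 0 and 14 below. An interval that includes 0 does not show that a gene is unaltered, and the 95% intervals given for single genes say how large a difference these samples allow.

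**Figure D2:**
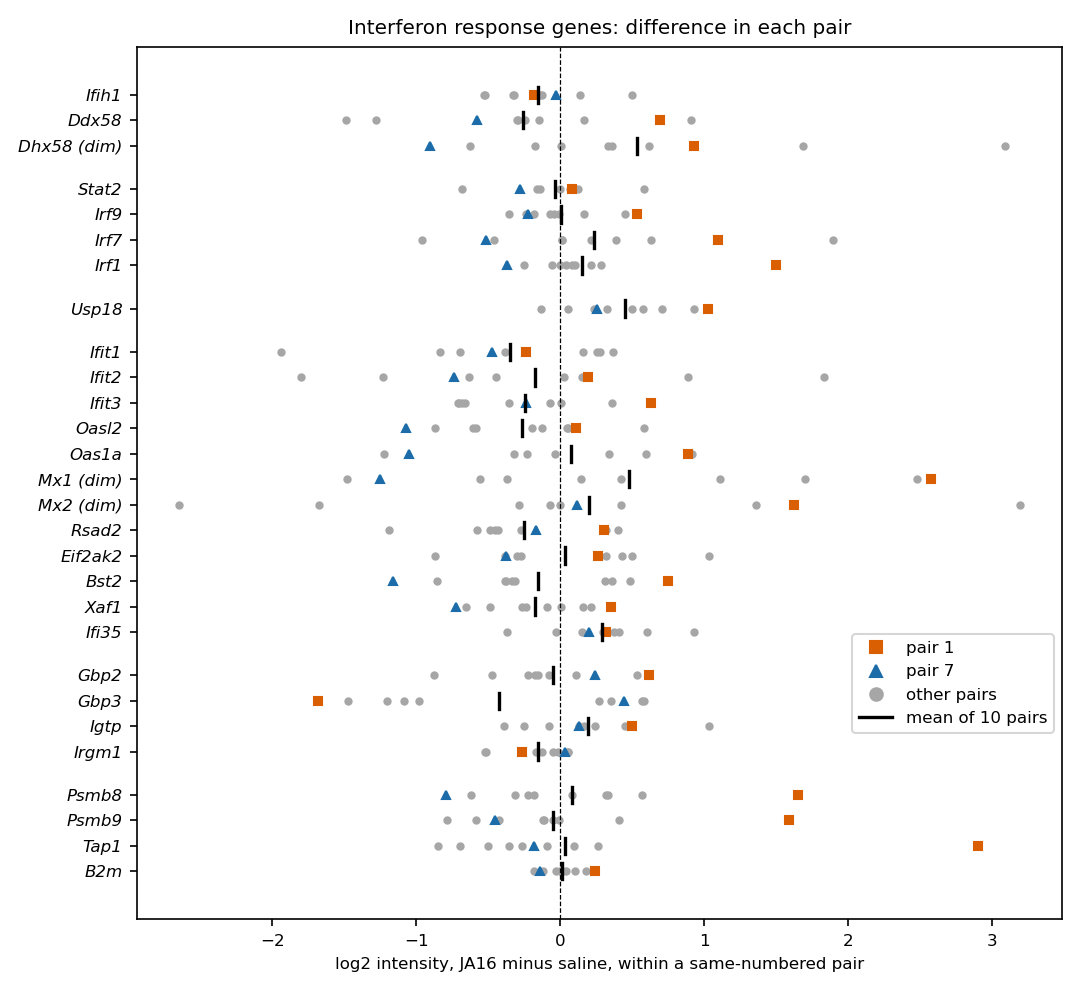
Difference in log2 intensity, JA16 minus saline, within each of the 10 same-numbered pairs for the 28 interferon response genes with a probe set, by role; genes marked dim did not pass the filter and were not tested. Vertical bars are means of the 10 pairs, which lie between -0.42 (Gbp3) and 0.45 (Usp18) for tested genes; pair 1 (squares) is the highest for Irf1, Psmb8, Psmb9 and Tap1, and pair 7 (triangles) the lowest for Oasl2, Bst2 and Psmb8.

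Of the sensors of viral RNA, Ifih1 (MDA5) and Ddx58 (RIG-I) were tested. Ifih1 ran from 91.8 to 308.4 with a median of 169.0 in JA16 samples, and from 98.3 to 317.8 with a median of 212.2 in saline samples. The groups overlapped almost wholly, and Ifih1 was at -0.15 (SE 0.12, limma adjusted p = 0.534), higher in JA16 in 2 of 10 pairs. Ddx58 was at -0.26 (SE 0.21, limma adjusted p = 0.565), with pair differences between -1.49 and 0.91. Dhx58 (LGP2), which modulates both sensors, did not pass the filter, with medians of 26.5 in JA16 and 23.85 in saline samples, and its highest value in either group was in replicate 7, at 58.5 in JA16 and 109.6 in saline.

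Among signalling and transcription factors, the components of the complex that binds the ISRE had means close to 0: Stat2 was at -0.03 (95% interval -0.35 to 0.28) and Irf9 at 0.003 (-0.23 to 0.24). Irf7, which amplifies type I interferon production, was at 0.23 (SE 0.24, limma adjusted p = 0.656), with JA16 values of 32.9 to 158.0 and saline values of 28.3 to 151.3. Irf1, a factor that interferon gamma induces and whose promoter window above holds a GAS match, ran from 249.5 to 780.6 with a median of 360.4 in JA16 samples, and from 218.5 to 446.6 with a median of 338.8 in saline samples. A single JA16 sample, replicate 1, lay above every saline sample by a wide margin, and the next JA16 value was 478.4. Irf1 was at 0.15 over the 10 pairs and at 0.003 without pair 1.

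Usp18 stood furthest to the JA16 side. It encodes the protease that removes the ubiquitin-like protein Isg15 from its targets, and it also restrains signalling from the type I interferon receptor. Usp18 had a lowest intensity of 297.5, a median of 444.7 and a highest of 683.5 in JA16 samples, against 196.7, 364.6 and 503.4 in saline samples. The groups overlapped, but within pairs the JA16 sample was higher in 9 of 10, with pair 5 the exception (297.5 in JA16, 326.7 in saline). The mean log2 fold change was 0.45 (SE 0.12, 95% interval 0.20 to 0.70), a fold of 1.36. This missed the threshold after adjustment (limma unadjusted p = 0.0017, adjusted p = 0.130), and an exact two-sided sign-flip permutation test over the 10 pairs gave p = 0.00586 before any adjustment. It was at 0.38 without pair 1, 0.47 without pair 7 and 0.40 without both, and at 0.47 without saline replicate 7 and without pairing. Isg15 itself shares its probe set with another gene and was not read, although its promoter window held 3 ISRE cores.

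Of the 10 antiviral effectors tested, 3 were above 0 and 7 below, with a median of -0.18, and none was called. Without saline replicate 7 and without pairing, Ifit2 was at 0.07, Oas1a at 0.24, Eif2ak2 at 0.20, Bst2 at 0.02 and Ifi35 at 0.23. Ifit1 was then at -0.27, Ifit3 at -0.12, Oasl2 at -0.13, Rsad2 at -0.18 and Xaf1 at -0.08, and again none was called. The values that follow are from all 10 pairs. Ifit1, which binds viral RNA ends, had a lowest intensity of 46.4, a median of 152.1 and a highest of 247.2 in JA16 samples, against 50.5, 194.9 and 288.3 in saline samples, and was at -0.35 (SE 0.20, limma adjusted p = 0.392). Ifit3, which stabilises Ifit1 in human cells, had 121.6, 259.8 and 548.8 in JA16 samples, against 188.2, 287.4 and 645.9 in saline samples, and was at -0.24 (SE 0.14, limma adjusted p = 0.399), higher in JA16 in 3 of 10 pairs. For both genes the promoter windows above hold repeated ISRE cores, and in both the groups overlapped over most of their range.

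Rsad2 (viperin), which makes a nucleotide that ends viral RNA chains, was at -0.26 (SE 0.14, limma adjusted p = 0.372), and Oasl2, a relative of the oligoadenylate synthetases, at -0.27. Oas1a, which makes the 2'-5' oligoadenylates that activate RNase L, was at 0.08, Eif2ak2 (PKR), a kinase that stops translation, at 0.03, Ifit2 at -0.18, Bst2 (tetherin), which holds virions at the cell surface, at -0.15 and Xaf1 at -0.17. None of these passed the test. Mx1 and Mx2, GTPases that block incoming viruses, did not pass the filter: Mx1 had medians of 29.95 in JA16 and 27.35 in saline samples, with a highest value of 99.1 in JA16 replicate 1 and of 214.9 in saline replicate 7, and Mx2 stayed at 26.1 or lower in JA16 and 24.1 or lower in saline.

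Ifi35, an interferon-induced protein that binds Nmi, was the other gene at an unadjusted p under 0.05. Its intensity ran from 3301.5 to 8619.7 with a median of 5062 in JA16 samples, and from 2624.1 to 7795.5 with a median of 4280 in saline samples. It was higher in JA16 in 8 of 10 pairs and at 0.29 (SE 0.10, limma unadjusted p = 0.0084, adjusted p = 0.196; exact sign-flip permutation p = 0.0293). These values rest on the brightest of its 3 probe sets, at a mean log2 of 12.16, which is of a cross-matching type. Another, at a mean log2 of 8.20, is also of that type and had a smaller difference of 0.16. The only one not of that type, at 8.19, had the smallest difference, 0.14, and was higher in JA16 in 6 of 10 pairs. All 3 probe sets passed the filter and were higher in JA16, but they order the 2 sample sets in opposite ways. The one used had a median of 5470 in replicates 1 to 6, against 3182 in the other set. The other cross-matching probe set had 366.7 against 232.2, and the one not of that type had 215.6 against 446.7. Ifi44 had no single-gene probe set.

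The interferon-inducible GTPases, some of which coat vacuoles that hold pathogens, were between -0.42 and 0.19. Gbp3 was at -0.42 (95% interval -0.97 to 0.13), the widest mean difference of the 25 genes to the saline side, with pair differences between -1.68 and 0.58. Gbp2 was at -0.05, Igtp at 0.19 and Irgm1 at -0.15, and none passed the test. Igtp differed between the sets of samples far more than between the groups, with a median of 2093 in replicates 1 to 6, against 879.8 in the other set.

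Antigen presentation genes were at or near 0 on average, and each was lower once pair 1 was left out. Psmb8, a catalytic subunit of the immunoproteasome, ran from 223.0 to 952.4 with a median of 329.4 in JA16 samples, and from 250.6 to 475.9 with a median of 299.6 in saline samples. Only JA16 replicate 1 lay above the saline range, and Psmb8 was at 0.08 over 10 pairs and at -0.09 without pair 1. Psmb9, its partner subunit, was at -0.05 and at -0.24 without pair 1. Tap1, which carries peptides into the endoplasmic reticulum, ran from 84.8 to 399.0 with a median of 148.6 in JA16 samples, and from 53.5 to 285.6 with a median of 146.4 in saline samples. Pair 1 held both extremes, 399.0 in JA16 and 53.5 in saline, a log2 difference of 2.90, and Tap1 was at 0.03 with it and -0.29 without it. B2m, the light chain of class I molecules, was at 0.01 with a narrow interval of -0.08 to 0.11. The standard proteasome subunits Psmb5, Psmb6 and Psmb7 were at 0.10, 0.12 and 0.08, and none was called.

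**Figure D3:**
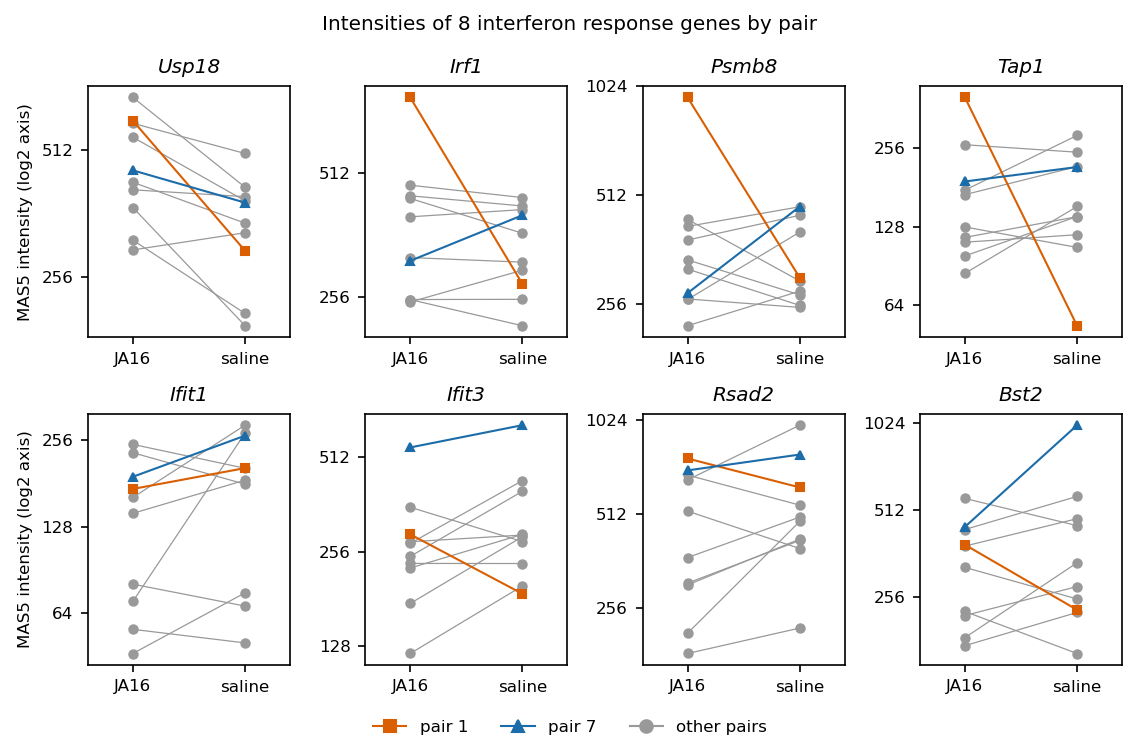
MAS5 intensities (log2 axis) of 8 interferon response genes, with a line for each same-numbered pair, the JA16 sample left and the saline sample right. Pair 1 (orange squares) has the highest JA16 value for Irf1 (780.6), Psmb8 (952.4) and Tap1 (399.0), pair 7 (blue triangles) has the highest values for Ifit3 in both groups (548.8 and 645.9), and the pairs tilt to the JA16 side for Usp18 in 9 of 10 cases.

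JA16 replicate 1 was the highest of the 12 samples in replicates 1 to 6 for 13 of the 25 genes, where it was highest for 18.7% of all genes. It lay over 1 log2 unit above the median of that set for 5 of them, Irf7, Irf1, Psmb8, Psmb9 and Tap1, against 5.47% of all genes, and its median deviation was 1.63 over the 4 antigen presentation genes. The same sample held the highest lymphocyte sum (4689), with Cd3e, a T cell receptor component, at 1249.1 against at most 93.3 in saline samples. JA16 replicate 10, with Cd3e at 709.8, had Irf1 at 478.4, above every saline sample (at most 446.6). JA16 replicate 8, with Cd3e at 26.2, also had Irf1 above every saline sample, at 451.0. Irf1 had a median of 421.9 in replicates 7 to 10, against 286.9 in replicates 1 to 6. JA16 replicate 10 lay 0.18 log2 units above the median of its set for Irf1, and JA16 replicate 1 lay 1.45 above that of its own. JA16 replicate 10 had Irf7 at 61.0, Psmb8 at 438.7, Psmb9 at 341.5 and Tap1 at 263.1, all inside the saline range. The lymphocyte markers of these samples differed. JA16 replicate 10 was also high for Cd3g (696.2) and Cd4 (111.7), but its Cd8a (18.1), Ms4a1 (21.8) and Cd79a (15.4) were inside the saline range. JA16 replicate 1 had Cd3g at 397.2, Cd4 at 368.7, Cd8a at 723.9, Ms4a1 at 485.0 and Cd79a at 1463.7. Ncr1 was low in both, at 3.8 and 1.4. The part of lymphocytes in the interferon gene values was not tested.

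Saline replicate 7 was high for effectors. It was the highest of the 8 samples in replicates 7 to 10 for 15 of the 25 genes. Over all genes that share was 25.3%. JA16 replicate 1 was the highest of its own set for 7 of these 15, and for 13 of all 25. Saline replicate 7 lay over 1 log2 unit above the median of its set for 10 of the 25, against 10.7% of all genes. Of these 10, 8 were effectors, among them Ifit1 (265.1), Ifit3 (645.9), Oas1a (349.5) and Bst2 (1003.1). Its median deviation was 1.26 over the 10 effectors and 0.048 over the 4 antigen presentation genes. Its Fc receptor genes, whose products bind the constant part of antibodies, were also the highest of all samples for Fcgr1 (782.1), Fcgr2b (2243.7), Fcgr3 (3142.3), Fcgr4 (612.7) and Fcer1g (3193.6), and this sample carried the saline label. The part of macrophages in its effector values was not tested.

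The JA16 sample with the same number was also high for effectors. By a rule chosen after these values were seen, both samples of pair 7 lay above the other 6 samples of replicates 7 to 10 for 11 of the 25 genes (Ifih1, Ddx58, Stat2, Irf9, Ifit1, Ifit2, Ifit3, Oasl2, Rsad2, Eif2ak2 and Gbp3), where 18.0% of all genes did so. In the other pairs of that set, 0 genes did so in pair 8 (10.7% of all genes), 1 in pair 9 (2.73%) and 1 in pair 10 (1.15%). In pairs 1 to 6, where both samples had to exceed 10 others, 0 or 1 did, against 0.482% to 7.58% of all genes. JA16 replicate 7 had a median deviation of 0.641 over the effectors. Its macrophage sum was 13500, against 7220 to 19610 in JA16 replicates 8 to 10, and its Fc receptor sum 3710, against 3339 to 6365. Single macrophage markers went both ways from the median of the set, with Mrc1 at 0.87 and C1qa at -0.68 log2 units. The part of macrophages in the effector values of JA16 replicate 7 was not tested.

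**Figure D4:**
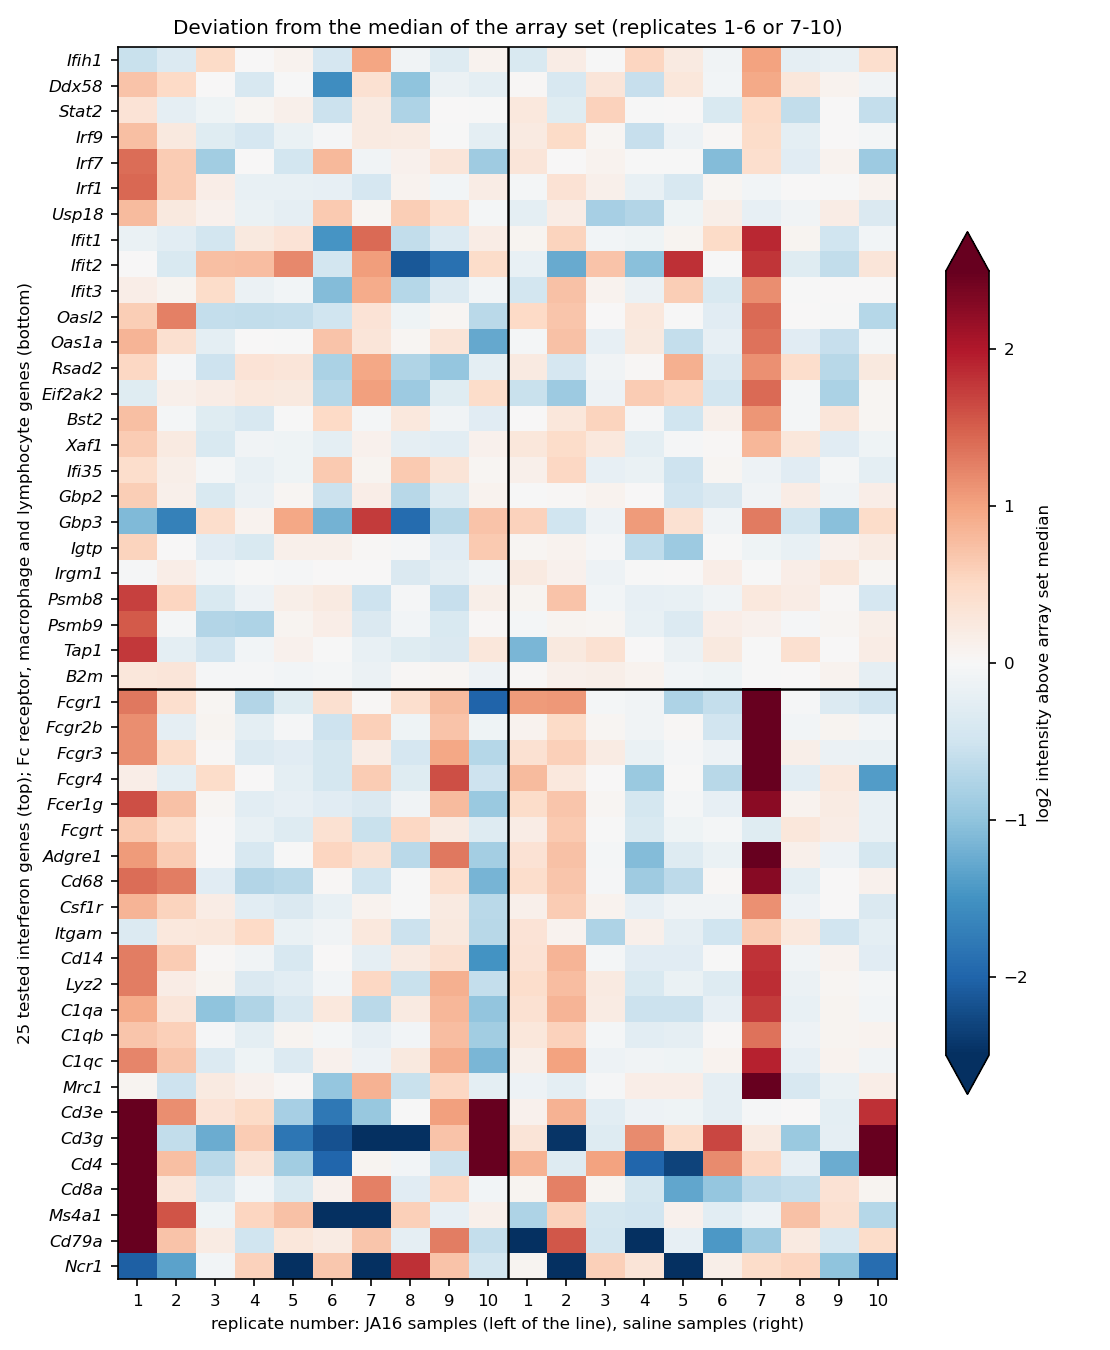
Deviation of log2 intensity from the median of the sample set (replicates 1 to 6 or 7 to 10) for the 25 tested interferon response genes (top) and 23 Fc receptor, macrophage and lymphocyte genes (bottom), JA16 samples left of the line and saline samples right; colours stop at 2.5 in either direction. JA16 replicate 1 is high for Irf1, Psmb8, Psmb9, Tap1 and lymphocyte genes, and replicate 7 is high for the Ifit genes and other effectors in both groups, with Fc receptor genes high in the saline sample.

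With pairs 1 and 7 left out, an alternative added after these samples were seen, 0 of the 25 genes were called by limma. At an unadjusted p under 0.05, Usp18 and Ifi35 were higher in JA16, where 6.52% of all genes stood. Ifit3, at -0.35 (limma unadjusted p = 0.0259), and Rsad2, at -0.34 (limma unadjusted p = 0.0471), were lower, where 8.0% of all genes stood. The median over the 25 genes was then -0.15, against -0.02 over all genes. With only pair 1 left out it was -0.14 (-0.03 over all genes), and with only pair 7 left out -0.009 (-0.008). Without saline replicate 7 and without pairing it was 0.02, with 15 genes above 0 and 10 below, against -0.01 over all genes. Fitted alone, replicates 1 to 6 gave a median of 0.03 over the 25 genes (-0.003 over all genes). Replicates 7 to 10 gave -0.24 (-0.03). For 0 of the 25 genes did the 2 sets separate without overlap in either direction, against 6.04% of all genes that were higher and 5.54% that were lower in replicates 1 to 6.

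Upstream of these genes, the interferon genes themselves were near the bottom of the scale. Of 6 listed, 5 had a probe set and none passed the filter, with highest values over all samples of 44.0 for Ifna1, 12.3 for Ifna2, 10.6 for Ifna4, 21.1 for Ifnb1 and 14.0 for Ifng. Of 95 other genes of the interferon pathway, these 6 included, 64 were tested and 0 were called by limma, against 0.277% of all genes. At an unadjusted p under 0.05, 3 of the 64 were higher and 3 lower in JA16, where 7.49% and 8.76% of all genes stood. The fit without pairing put 0 of the 64 at that threshold, where 2.65% of all genes stood. The median of the 64 was -0.01. Jak1, a kinase on the receptors of both interferon types, was nearest to the threshold, at 0.23 (SE 0.051, limma adjusted p = 0.0762) and higher in JA16 in 10 of 10 pairs. Ticam1 (TRIF), the adaptor of an RNA-sensing Toll-like receptor, was at 0.47 (limma adjusted p = 0.230), and Psmb10, the remaining immunoproteasome subunit, at 0.18 (limma adjusted p = 0.297). Ifngr2, a chain of the interferon gamma receptor, was at -0.20, Pias1, a SUMO ligase that restrains interferon signalling, at -0.33, and the GTPase gene Gbp6 at -0.35.

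No Fc receptor and no marker that entered the test was called between the groups, and the lymphocyte markers did not enter it. The 6 Fc receptor genes had a median of -0.18, with Fcgr1 at -0.24, Fcgr2b at -0.17, Fcgr3 at -0.27, Fcgr4 at -0.07, Fcer1g at -0.19 and Fcgrt, which recycles antibodies, at 0.06. These means include saline replicate 7, the highest sample of its set for 5 of the 6 genes. In pair 7, Fcgr3 was at 598.3 in JA16 and 3142.3 in saline, and Fcgr2b at 424.2 and 2243.7. Of 9 macrophage and monocyte markers tested, 8 were below 0, with a median of -0.16 and C1qb at -0.10. Saline replicate 7 was the highest sample of its set for all 10 listed markers of these cells. The neutrophil markers S100a9 and S100a8 were at 0.01 and -0.40, the endothelial marker Tek at -0.20 and the muscle marker Myh4 at 0.03. Of plasmacytoid dendritic cell markers, only Bst2 passed the filter, and it is itself an interferon response gene.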

How the data were processed

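Gene expression was measured in 10 JA16 and 10 saline gastrocnemius samples. The deposited values are linear array intensities from MAS5, per the submitters' processing notes, with no version given, and neither the scaling target nor detection calls are stated. A mean trimmed by 2% at both ends was 500.0 on all 20 arrays, and array medians were 38.9 to 77.1. The number of arrays limits the precision. The deposited table held 45101 probe sets, of which the platform annotation gave 1 gene to 34945, several to 932 and none to 9160 (64 more were controls).

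The 5 values that were 0 or negative were replaced by 0.1 before log2 was taken. A gene was read from its single-gene probe set with the highest mean and tested if that mean log2 was at least 5.65, the median of all probe sets. The comparison used limma 3.58.1 under R 4.3.3, by lmFit and eBayes with an intensity trend, two-sided, with Benjamini-Hochberg adjustment over 11200 genes and a threshold of 0.05, and the replicate number as a block. The fit without the block, other filters, scalings and probe set choices, and samples left out were alternatives. The fit was tested on simulated data. Tables used pandas 2.3.3 and numpy 2.4.6, and figures matplotlib 3.10.9.

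The labels number both groups 1 to 10. After subtraction of group means, the correlation within a number was 0.377 to 0.786 (10 of 10 pairs over 0.1), and its median between numbers was -0.108. That median includes samples of different sample sets, so these values do not separate a shared number from a shared sample set. Of the 10 samples in each group, 6 saline and 5 JA16 samples correlated best with the sample of their own number. The numbers were treated as pairs. Array numbers alternate between the groups, from 139 for saline replicate 1 and 140 for JA16 replicate 1. Within each pair the saline array carries the lower number, so that order within a pair and treatment cannot be told apart. The genes named are all 30 listed genes, the 3 higher and 3 lower other pathway genes with the smallest p, all Fc receptors and standard proteasome subunits, and the marker with the highest mean of each list. Members and lists were chosen with earlier results of these data known.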

Additional observations from a re-analysis of the deposited data

Results flagged for a closer look

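Psmb8, an immunoproteasome subunit, had an intensity of 952.4 in JA16 replicate 1, where the other 9 JA16 samples lay between 223.0 and 438.7. On the log2 scale, on which the groups were compared, its gap to the nearest sample was 0.534 of the range of the JA16 samples, above Dixon's 95% critical value for 10 samples. Of 56 groups of samples examined for the interferon response genes, this was the 1 that passed on that scale, and chance passes about 1 in 20. On the linear intensities 14 groups passed, Psmb8 in JA16 among them at 0.704, with Irf1 in JA16 at 0.569, Oas1a in saline at 0.60 and Mx1 in saline at 0.80. Without pair 1, Psmb8 was at -0.09.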

How the results depend on the processing

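Under 26 alternatives, 0 of the interferon response genes and 0 of the other pathway genes were called, Usp18 stayed between 0.38 and 0.52 and Ifi35 between 0.14 and 0.45, and 13 of the 25 genes kept their direction. The fit without the replicate block called 4 genes in all against 31 in the paired fit, put 1 of the 25 at an unadjusted p under 0.05 against 2, and 0 other pathway genes against 6; it changed no direction. All genes called numbered 10 with centred array medians, 15 with the mean of all probe sets, 9 without the intensity trend, 5 without saline replicate 7 and pairing, 0 in replicates 1 to 6, 0 in replicates 7 to 10, 9 with the sample set as the block, 2 without JA16 replicate 1 and pairing, 18 without pairs 1 and 7, and 11 without pairs 1, 7 and 10. Leaving out 1 pair gave 10 to 51, and the count of interferon genes at an unadjusted p under 0.05 was then 2 to 4 and that of other pathway genes 3 to 9. All genes at that threshold then numbered 1224 to 2023 of 11200. That count for interferon genes was 1, of 22 tested, with the mean of all probe sets (1435 of 9964 for all genes). Without cross-matching probe sets it was 1, of 18 tested (1597 of 9636). It was also 1 without saline replicate 7 and pairing (277 of 11200), in replicates 1 to 6 (1099) and without JA16 replicate 1 and pairing (352). It was 4 in replicates 7 to 10 (799 of 11200 for all genes), without pairs 1 and 7 (1626) and without pairs 1, 7 and 10 (1924). The count for other pathway genes was 0 without saline replicate 7 and pairing and without JA16 replicate 1 and pairing. The fit of all samples without pairing also gave 0, while the paired fit without pair 7 gave 9, as did that without pair 1. It was 2 in replicates 7 to 10 and 1 with the sample set as the block. The cause was not tested.

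Directions turned for 12 genes. With centred array medians, Stat2 was at 0.0351, Gbp2 at 0.0193 and Psmb9 at 0.0158. With quantile normalization, Stat2 was at 0.0417, Gbp2 at 0.0184, Psmb9 at 0.00832 and B2m at -0.0523. With the mean of all probe sets, Eif2ak2 was at -0.123. Without saline replicate 7 and pairing, Stat2 was at 0.0599, Ifit2 at 0.0709, Bst2 at 0.0174 and Psmb9 at 0.0145. Without JA16 replicate 1 and pairing, Irf9 was at -0.0989, Psmb8 at -0.0771, Tap1 at -0.12 and B2m at -0.0147. Without pairs 1 and 7, Irf9 was at -0.0352, Psmb8 at -0.00569 and Tap1 at -0.301. Without pairs 1, 7 and 10, Irf9 was at -0.014, Psmb8 at -0.0872, Tap1 at -0.357 and B2m at -0.0105. In replicates 1 to 6, Irf9 was at -0.00142, Ifit2 at 0.31, Bst2 at 0.00296, Gbp2 at 0.0745 and Psmb9 at 0.0849. In replicates 7 to 10, Stat2 was at 0.036, Irf1 at -0.061, Oas1a at -0.26, Eif2ak2 at -0.0823, Psmb8 at -0.268, Tap1 at -0.285 and B2m at -0.014. Leaving out 1 pair at a time gave -0.0561 to 0.0429 for Irf9, -0.0172 to 0.221 for Oas1a, -0.0933 to 0.179 for Psmb8, -0.288 to 0.129 for Tap1, -0.0133 to 0.0336 for B2m, -0.0783 to 0.133 for Eif2ak2, -0.103 to 0.0383 for Stat2, -0.236 to 0.0281 for Psmb9, -0.4 to 0.00368 for Ifit2 and -0.124 to 0.0423 for Gbp2.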
